A study of Mus musculus with 4 samples.

Results

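The type I interferon response genes are the transcripts that cells switch on when interferon alpha or beta reaches its receptor, together with the sensors, receptor chains and transcription factors that carry the signal. A published-knowledge list of 44 such genes was followed through lineage-negative bone marrow, the progenitor-rich cells that remain after magnetic removal of cells with markers of mature blood lineages. Of the 44 genes, 37 had a probe that the platform annotation assigns to a single gene symbol, out of 13840 such genes on the array, and 35 of the 37 lay in the brighter 50% of probes used for testing, out of 8445 genes. Where a gene had several such probes, that with the highest mean signal was taken. Ddx58, Dhx58, Oas1a, Ifit3, Ifi44, Mx1 and Xaf1 were not analysed here for want of such a probe.

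The Mtg16-null group comprised 2 arrays of lineage-negative marrow from female mice aged 8 to 12 weeks that lack Mtg16 (gene symbol Cbfa2t3), a corepressor of transcription in blood progenitors, per the labels. The wild-type group comprised 2 arrays of the same marrow fraction from C57BL/6 females of the same age. The RNA on an array came from femur and tibia marrow of a pool of 4 mice. There were 2 array lots, with 1 null and 1 wild-type array in each. The null mice are labelled N4 backcrossed into C57BL/6, so the deletion and what is left of another strain background cannot be told apart here. The labels do not say that the 2 pools of a genotype came from separate animals, so the p-values cover the spread among these 4 arrays alone, and that spread may be technical.

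In this pathway, helicases such as Ifih1 and the oligoadenylate synthetases recognise viral double-stranded RNA, and interferon then binds the receptor chains Ifnar1 and Ifnar2. The receptor's kinases activate a transcription factor complex that includes Stat2 and Irf9 and binds the interferon-stimulated response element in the promoters of its target genes. Blood stem and progenitor cells are known to keep some of these genes on without infection, and interferon can push resting stem cells into division.

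The response element was looked for in the promoters that carry the results below. The core searched was GAAA, then 2 bases of any kind, then GAAA, on either strand (on the other strand it reads TTTC, 2 bases of any kind and TTTC), and overlapping matches were allowed. The windows ran from 250 bases before to 50 bases after each start site in RefSeq's promoter table for build GRCm38.p6. Below are the 120 bases before the start site of 5 genes, read 5′ to 3′ on the gene's strand, with bases of a match in capitals. Ifit1, Isg15 and Rsad2 are shown as genes with lower signal in the null arrays that hold the element, Gbp3 as one with higher signal that holds it, and Oasl1 as the gene with the largest difference, which had no match in its window. Isg20 and Irf7, also with lower signal in the null arrays, had no match either and are not shown.
Ifit1, chr19:34640769-34640888, plus strand: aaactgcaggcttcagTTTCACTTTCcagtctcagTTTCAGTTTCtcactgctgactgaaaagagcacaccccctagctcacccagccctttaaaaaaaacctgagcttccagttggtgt
Isg15, chr4:156200819-156200938, minus strand: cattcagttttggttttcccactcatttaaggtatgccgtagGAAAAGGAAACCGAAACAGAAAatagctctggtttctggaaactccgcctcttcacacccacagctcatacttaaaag
Rsad2, chr12:26456453-26456572, minus strand: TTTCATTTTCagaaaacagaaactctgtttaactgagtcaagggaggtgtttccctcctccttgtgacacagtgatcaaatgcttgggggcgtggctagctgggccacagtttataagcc
Gbp3, chr3:142559924-142560043, plus strand: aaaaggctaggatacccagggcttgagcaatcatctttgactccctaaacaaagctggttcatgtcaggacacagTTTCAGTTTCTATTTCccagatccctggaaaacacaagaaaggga
Oasl1, chr5:114923120-114923239, plus strand: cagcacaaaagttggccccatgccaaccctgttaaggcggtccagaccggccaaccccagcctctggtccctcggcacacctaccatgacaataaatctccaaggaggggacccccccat

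In Isg15 there were 3 overlapping matches, and in Ifit1 there were 2, with first bases 104 and 85 bases before the start site. RefSeq's table lists 2 start sites for Gbp3, and the one shown held both of its matches. The table held 37 of the 44 listed genes, of which 18 had the core (48.6%), against 1079 of all 27025 genes in the table (3.99%). The list was drawn up from known interferon targets, so this share describes the list and not the arrays.

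Signals are the authors' deposited probe intensities in signal units, already normalized to a common distribution, with a median of 470 units on each array. Differences are of log2 signal, null minus wild type, with the standard error (SE) of limma's fit over all 8445 genes and Benjamini-Hochberg adjusted p-values over those genes. Probes of Y-linked genes, which female mice lack, gave 94.5 to 498 units and serve as a guide to background. The probe of Cbfa2t3 read 95520 and 118572 units in the null arrays, against 80854 and 100256 units in wild type. The files do not say whether this probe lies within the deletion, so it is no check of the labels.

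The interferon response genes did not move as a block. Oasl1 fell 8.73-fold in the null arrays and was the 1 of 35 tested members that passed the threshold of 0.05 (limma adjusted p = 0.0406), while 0.118% of the 8445 genes were called lower. With the array lot as a block in the fit, the call was lost (limma adjusted p = 0.113) and 0 of the 8445 genes passed. The block leaves that fit fewer residual degrees of freedom, and the SE for Oasl1 was 0.13 with it and 0.17 without. No member was called higher, as was so for 0 of the 8445 genes. At an unadjusted limma p under 0.05, 11 members were lower (31.4%) and 5 were higher (14.3%), against 6.83% of all genes lower and 9.65% higher. The 11 were Oasl1, Isg20, Ifit1, Isg15, Usp18, Irf7, Irgm1, Ifih1, Adar, Oasl2 and Oas3, and the 5 were Ifitm1, Gbp3, Stat2, Ifi47 and Ifitm2. Of the 11, Ifit1 was bright enough for testing through wild type alone, which favours a lower value in null.

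Both null arrays lay below both wild-type arrays for 15 of the 35 tested members (42.9%), against 23.1% of all tested genes. Both lay above for 9 members (25.7%), against 22.6% of all tested genes. A difference past 1.5-fold the same way in both lots was found for 7 members lower (20.0%, against 5.75% of all tested genes) and 3 higher (8.57%, against 8.55%). Past 2-fold in both lots there were 4 lower members (11.4%, against 2.2% of all tested genes) and 1 higher member, Gbp3 (2.86%, against 3.26%). By sign alone, 23 of the 35 members were lower and 12 higher, against 52.1% and 47.9% of all tested genes. The median log2 difference of the tested members was -0.32, with -0.34 in lot 1 and -0.45 in lot 2, beside -0.02 for all tested genes. By the overlap and fold rules the lower side thus held more members than the share over all genes, and the higher side about that share. By sign, the higher side fell below it (34.3%, against 47.9%). Ifit1, Rsad2 and Iigp1 were bright enough for testing through wild type alone, and for these genes that choice favours a lower value in null. Ifit1 and Rsad2 are among the 7 lower members past 1.5-fold, and Ifit1 is among the 4 past 2-fold. Both null signals of Ifit1 and the lot 1 null signal of Rsad2 lay within the Y-linked range. Irf7, also among the 4, passed 2-fold only narrowly in lot 2. The fold counts were not repeated without these genes. Among the 32 members bright enough in both genotypes, a count added after the values were seen, 13 were lower without overlap (40.6%, against 22.8% of such genes) and 9 higher (28.1%, against 22.2%).

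**Figure D1:**
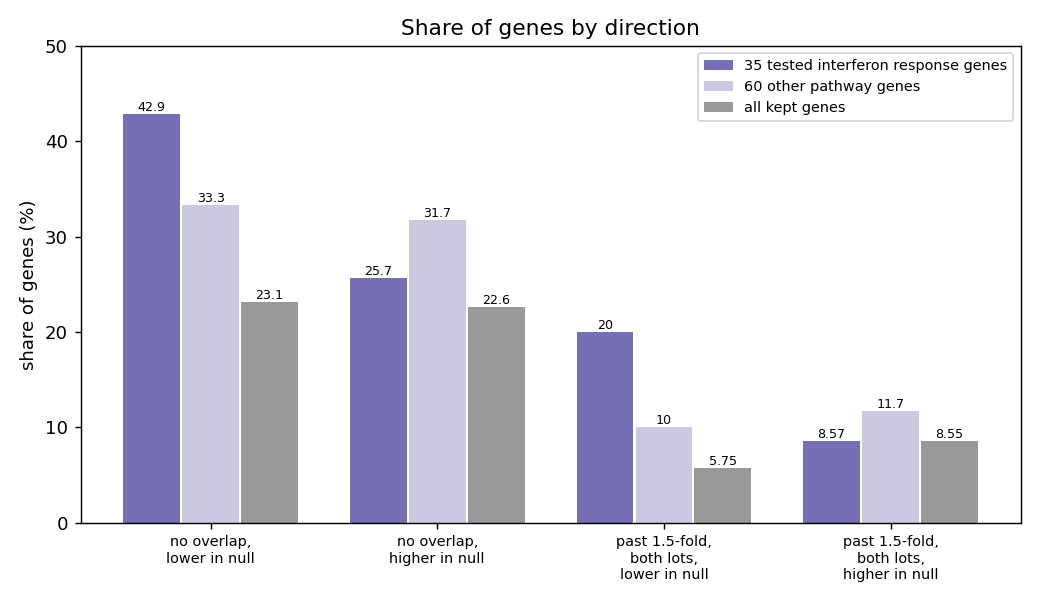
Share of genes, in percent, with groups that do not overlap and with a difference past 1.5-fold in both lots, for the 35 tested interferon response genes, 60 other genes of the pathway and all 8445 tested genes. The interferon response genes stand at 42.9% against 23.1% for lower without overlap, and at 8.57% against 8.55% for higher past 1.5-fold.

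**Figure D2:**
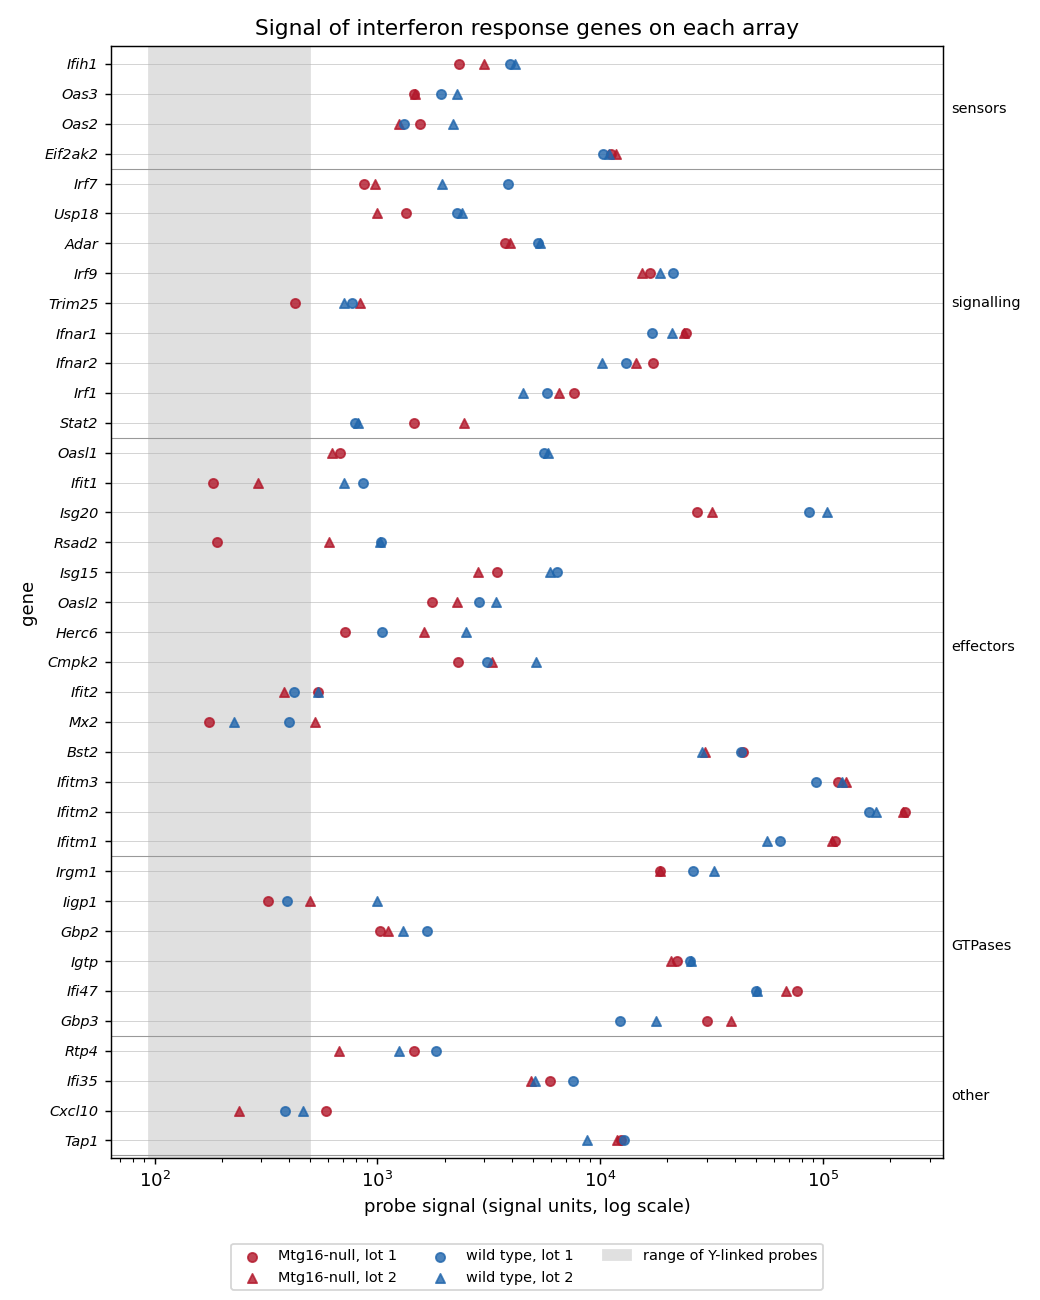
Probe signal of each interferon response gene on the 4 arrays, in signal units on a log axis, grouped by role; red marks Mtg16-null and blue wild type, circles lot 1 and triangles lot 2, and the grey band spans the 94.5 to 498 units of Y-linked probes. Red and blue separate widely for Oasl1, Isg20 and Irf7 and in the other direction for Gbp3 and Ifitm1.

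Among the RNA sensors, the null arrays read lower for 2 genes and overlapped wild type or lay close to it for the others. Ifih1, the cytosolic helicase also called MDA5, read 2324 and 2998 units in null and 3949 and 4122 units in wild type. Its log2 difference was -0.61 (SE 0.21, limma adjusted p = 0.283), and both null arrays were the low ones. Oas3, a synthetase of the oligoadenylates that activate RNase L, read 1456 and 1479 units in null and 1933 and 2266 units in wild type.

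The Oas3 difference was -0.51 (SE 0.18, limma adjusted p = 0.298), with the 2 groups apart. Its relative Oas2 read 1559 and 1244 units in null and 1316 and 2186 units in wild type, and the groups overlapped, with log2 differences of 0.24 in lot 1 and -0.81 in lot 2. Eif2ak2, the kinase PKR that stops translation on sensing double-stranded RNA, read 11144 and 11797 units in null and 10324 and 10910 units in wild type. The null arrays were the high ones there by little, at a difference of 0.11 (SE 0.17, limma adjusted p = 0.832).

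The signalling genes split. Both receptor chains and Stat2 read higher in null, and Irf7 with the feedback inhibitor Usp18 read lower. Ifnar1 read 24189 and 23796 units in null, against 16984 and 21067 units in wild type. Ifnar2 read 17186 and 14396 units in null, against 13095 and 10173 units in wild type. The log2 differences of the receptor chains were 0.34 and 0.45 (limma adjusted p = 0.499 and 0.449), and in both cases the null arrays were the 2 highest.

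Stat2, the subunit that gives the activated complex its transactivating part, read 1454 and 2436 units in null and 789 and 816 units in wild type. It was 2.35-fold higher (log2 difference 1.23, SE 0.31, limma adjusted p = 0.189), with 0.88 in lot 1 and 1.58 in lot 2. Irf9, its DNA-binding partner, lay on the other side, at 16634 and 15333 units in null and 21277 and 18556 units in wild type (log2 difference -0.32, limma adjusted p = 0.503). Thus 2 subunits of the same complex differed in sign, neither of them past the threshold.

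Irf7, the transcription factor that amplifies interferon production, read 870 and 975 units in null and 3841 and 1950 units in wild type. The log2 difference was -1.57 (SE 0.38, limma adjusted p = 0.181), and the lots differed, lot 1 alone giving -2.14. The 2 wild-type arrays differed more from each other than the 2 null arrays did. Irf1, a factor induced by interferons of both types, went the other way, at 7613 and 6522 units in null and 5777 and 4511 units in wild type (log2 difference 0.46, limma adjusted p = 0.418). Usp18, a protease that removes Isg15 from proteins and dampens the receptor, read 1349 and 998 units in null and 2269 and 2396 units in wild type.

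Usp18 was 2.01-fold lower (SE 0.23 on the log2 scale, limma adjusted p = 0.156), and the groups were apart. Adar, the enzyme that edits adenosines in double-stranded RNA, read 3725 and 3937 units in null and 5271 and 5369 units in wild type (log2 difference -0.47, SE 0.17, limma adjusted p = 0.294). Trim25, the ubiquitin ligase that acts on the sensor RIG-I, read 425 and 832 units in null and 772 and 705 units in wild type, with the wild-type arrays between the null ones. Its lot 1 null signal lay within the Y-linked range.

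The effector genes held the largest differences toward lower signal in null. Oasl1, an oligoadenylate synthetase-like protein known in mice to hold back translation of Irf7, read 681 and 626 units in null and 5584 and 5821 units in wild type. Its log2 difference was -3.13 (SE 0.17), with -3.04 in lot 1 and -3.22 in lot 2. In the fit with the lot block, 13 members were lower (37.1%) and 7 higher (20%) at an unadjusted limma p under 0.05, against 11% and 13.3% of all tested genes. The 13 include Ifit1, which was bright enough for testing through wild type alone. With any 1 array left out, the limma adjusted p of Oasl1 lay between 0.137 and 0.239. Without the filter on dim probes it was 0.182. Its neighbour in name, Oasl2, read 1754 and 2279 units in null and 2869 and 3392 units in wild type (log2 difference -0.64, SE 0.23, limma adjusted p = 0.295).

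Isg20, an exonuclease that degrades viral RNA, read 27038 and 31629 units in null and 86283 and 104033 units in wild type. It was 3.24-fold lower (log2 difference -1.70, SE 0.21, limma adjusted p = 0.0928), with -1.67 in lot 1 and -1.72 in lot 2, and the gap between the groups was far wider than that within them. Ifit1, which binds viral RNA caps, read 184 and 290 units in null and 858 and 710 units in wild type (log2 difference -1.76, SE 0.30, limma adjusted p = 0.108). Both null signals were as low as those of Y-linked probes, so the size of the difference is not resolved from background.

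Isg15, the ubiquitin-like modifier, read 3438 and 2816 units in null and 6372 and 5963 units in wild type, 1.98-fold lower (SE 0.20 on the log2 scale, limma adjusted p = 0.13). Rsad2, the antiviral enzyme viperin, read 190 and 606 units in null and 1034 and 1030 units in wild type. The wild-type arrays of Rsad2 nearly coincided and the null ones did not, with log2 differences of -2.45 in lot 1 and -0.77 in lot 2 (SE 0.61, limma adjusted p = 0.321).

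The next 2 effectors followed the array lot more than the genotype. Herc6, the mouse ligase that attaches Isg15, read 713 and 1622 units in null and 1043 and 2493 units in wild type. Cmpk2, a mitochondrial nucleotide kinase next to Rsad2 in the genome, read 2287 and 3268 units in null and 3088 and 5132 units in wild type. Within lots both genes were lower in null, Herc6 by -0.55 and -0.62 and Cmpk2 by -0.43 and -0.65 on the log2 scale, while the groups overlapped across lots.

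Bst2, the surface protein tetherin that holds virus particles on the cell, showed the lot alone, at 43741 and 29557 units in null and 42701 and 28570 units in wild type. Ifit2 read 542 and 382 units in null and 422 and 542 units in wild type, with no separation of the groups.

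The Ifitm genes, which encode membrane proteins that hinder virus entry and lie together on chromosome 7, averaged higher in null. Ifitm1 read 113366 and 109348 units in null and 63759 and 56108 units in wild type, 1.86-fold higher (SE 0.18 on the log2 scale, limma adjusted p = 0.13). Ifitm2 read 233724 and 227470 units in null and 160028 and 172956 units in wild type (log2 difference 0.47, SE 0.17, limma adjusted p = 0.30). Ifitm3 read 116144 and 127053 units in null and 92493 and 121230 units in wild type, and its groups overlapped. The Ifitm genes are close in sequence, so signal shared between their probes cannot be told apart from that of a single gene. A second probe of Ifitm1 was too dim to be among the tested probes.

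**Figure D3:**
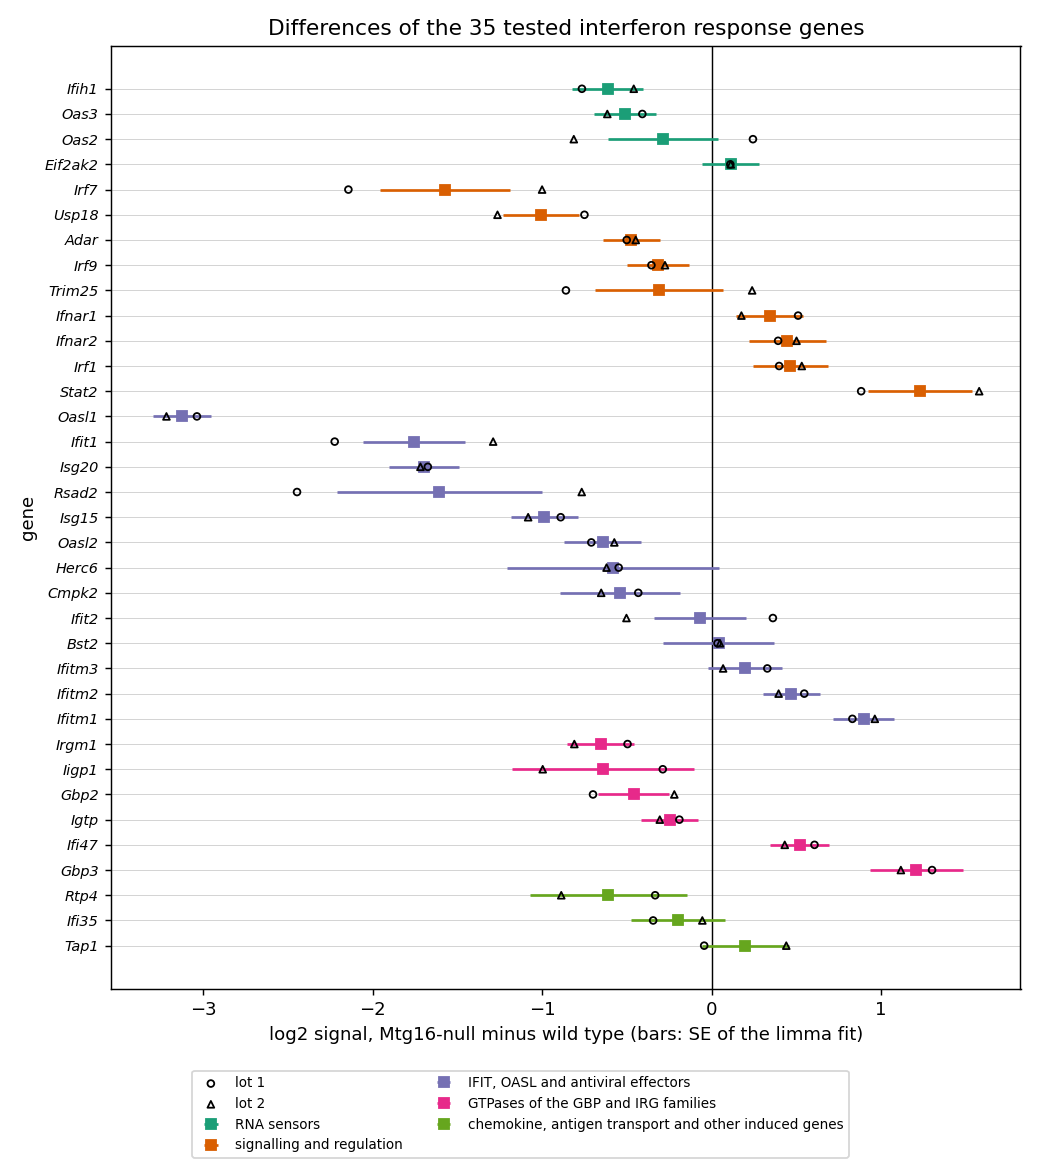
Difference in log2 signal, Mtg16-null minus wild type, for the 35 tested interferon response genes, with squares for the mean of both lots, bars for the SE of limma's fit, circles for lot 1 and triangles for lot 2. Colours give the role; Oasl1 lies at -3.13 and Stat2 at 1.23.

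The interferon-inducible GTPases, which attack the vacuoles of intracellular microbes, lay on both sides. Gbp3 read 30230 and 38463 units in null and 12274 and 17741 units in wild type, 2.31-fold higher (SE 0.28 on the log2 scale, limma adjusted p = 0.161). Gbp2, a guanylate-binding protein gene on the same chromosome, read 1022 and 1118 units in null and 1660 and 1302 units in wild type (log2 difference -0.46, SE 0.21, limma adjusted p = 0.405). The groups were apart for both genes, in opposite directions, and both promoters held the response element core.

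Irgm1, a GTPase that also protects blood stem cells from exhaustion in mice, read 18433 and 18451 units in null and 25996 and 32345 units in wild type (log2 difference -0.65, SE 0.20, limma adjusted p = 0.248). Igtp read 22116 and 20671 units in null and 25234 and 25552 units in wild type, also lower, by -0.25. Ifi47, of the same GTPase family and also on chromosome 11, read 76199 and 68125 units in null and 50034 and 50519 units in wild type (log2 difference 0.52, SE 0.17, limma adjusted p = 0.277). Its null arrays were thus the 2 highest. Iigp1 read 323 and 496 units in null and 394 and 990 units in wild type, with overlap and partly within the Y-linked range.

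Of the remaining members, Tap1, a subunit of the peptide transporter for MHC class I, read 12417 and 11820 units in null and 12801 and 8711 units in wild type. Rtp4, a chaperone of receptors in the Golgi, read 1455 and 675 units in null and 1833 and 1248 units in wild type, and Ifi35 read 5960 and 4893 units in null and 7569 and 5082 units in wild type. The groups overlapped for these genes. The antiviral GTPase gene Mx2 and the chemokine gene Cxcl10, the 2 members outside the tested probes, lay between 175 and 586 units over all 4 arrays.

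**Figure D4:**
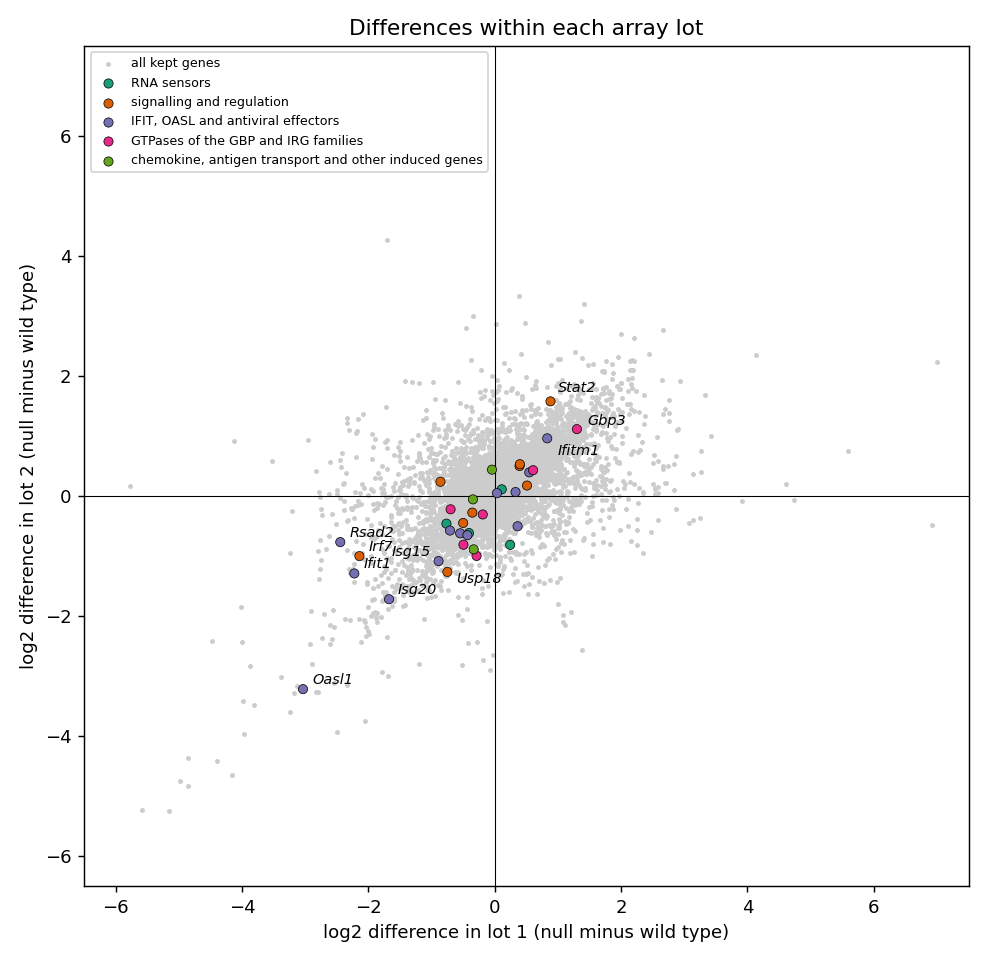
Log2 difference, null minus wild type, within array lot 1 (horizontal) and within lot 2 (vertical), with 1 point per gene: grey for all 8445 tested genes, coloured by role for the 35 tested interferon response genes. Oasl1, Isg20 and Gbp3 lie near the diagonal, while Rsad2, Irf7 and Ifit1 differ between the lots.

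The lots gave opposite signs for 4 of the 35 tested members (Oas2, Trim25, Ifit2 and Tap1), or 11.4%, against 29.5% of all tested genes. The shift between lots, averaged over both genotypes, was larger than the difference between genotypes for 10 members (28.6%), against 48.1% of all tested genes. It was largest on the log2 scale for Herc6, at 1.22 (lot 2 minus lot 1), beside a genotype difference of -0.58.

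The members were also divided by signal strength. Of the 17 tested members outside the brighter 25% of probes, 16 had lower and 1 had higher mean log2 signal in null, the exception being Stat2, and their median difference was -0.61. Among all tested genes outside the brighter 25%, 49.8% were lower and 50.2% higher. Of the 18 members in the brighter 25%, 7 were lower and 11 higher, with a median difference of 0.15, against 53.6% lower and 46.4% higher among all tested genes there. In the dimmer part the groups did not overlap for 9 lower members (52.9%, against 19.9% of genes there) and for 1 higher member, Stat2 (5.88%, against 22.4%).

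In the brighter part the groups did not overlap for 6 lower members (33.3%, against 25.4% of genes there) and for 8 higher members (44.4%, against 22.7%). These brighter members that were higher were Eif2ak2, Ifnar1, Ifnar2, Irf1, Ifitm1, Ifitm2, Gbp3 and Ifi47. The split was chosen after the values were seen, and a probe's brightness depends on the probe as well as on the transcript. It rests on the mean of all 4 arrays, so a difference between genotypes helps to place a gene. Ifih1, Oasl1 and Cmpk2 on the dimmer side and Isg15 on the brighter side passed the 25% mark in wild type and not in null. Of the 14 members below the mark in both genotypes, 13 were lower in null, against 49.8% of such genes. Of the 17 above it in both, 6 were lower, against 54.1%. The 14, and the dimmer side as a whole, include Ifit1, Rsad2 and Iigp1, which were bright enough for testing through wild type alone. That choice favours a lower value in null for these genes, so the counts of lower members there partly reflect it.

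**Figure D5:**
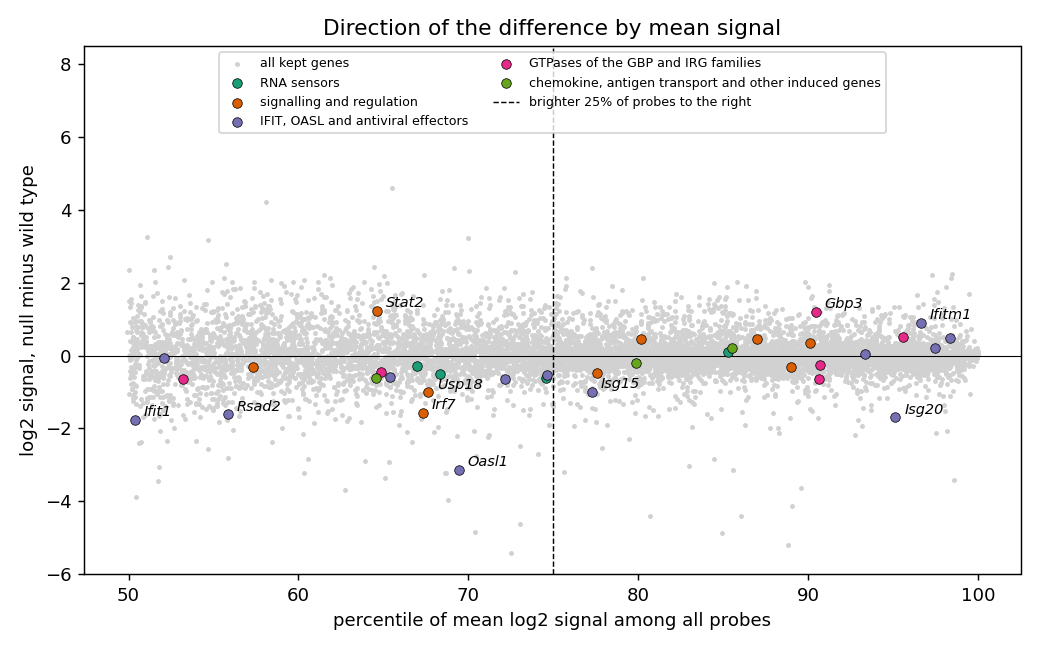
Log2 difference, null minus wild type, against the percentile of a probe's mean log2 signal among all probes, grey for all tested genes and coloured by role for the interferon response genes. Left of the dashed line 16 of 17 members are lower in null, and right of it 11 of 18 are higher. Ifit1, Rsad2 and Iigp1, left of the line, were bright enough for testing through wild type alone.

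The response element core did not separate the directions. Of tested members with an entry in the promoter table, it was held by 8 of 14 with both null arrays below wild type, by 4 of 9 with both above and by 2 of 8 with overlapping groups. The counts are a description, and the lack of a match says only that these letters are not in the window.

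Other genes of the pathway were taken from 3 lists of ligands, signalling genes and induced genes, with 117 names, of which 76 had a probe with a single symbol and 60 were tested. By limma's adjusted p 0 of them passed the threshold of 0.05, while 6 were lower (10%) and 8 higher (13.3%) at an unadjusted p under 0.05, near the 6.83% and 9.65% of all tested genes. The groups did not overlap for 20 lower genes (33.3%, against 23.1% of all tested genes) and 19 higher genes (31.7%, against 22.6%), and the median log2 difference was 0.00. By sign, 22 of 40 tested induced genes were lower and 18 higher, and 5 of 15 tested signalling genes were lower and 10 higher. The 8 genes below are those with the largest difference in the lot where it was smaller, a choice that makes both lots share a sign.

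Slfn4, a Schlafen gene induced by interferon in mouse myeloid cells, read 867 and 1307 units in null and 4249 and 5491 units in wild type, 4.54-fold lower (limma adjusted p = 0.0975). Tgtp1, an IRG family GTPase, read 17634 and 18074 units in null and 37055 and 40512 units in wild type, 2.17-fold lower (limma adjusted p = 0.103). Its near-identical copy Tgtp2 may share this probe's signal. Oas1c, a mouse oligoadenylate synthetase-family gene, read 872 and 1123 units in null and 2385 and 2175 units in wild type.

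Plscr1, a phospholipid scramblase that acts against viruses, read 19521 and 27213 units in null and 36691 and 60019 units in wild type. Slfn1, another Schlafen gene, read 1654 and 205 units in null and 2862 and 513 units in wild type, so that lot outweighed genotype. In lot 2 its null signal lay within the Y-linked range and its wild-type signal just above it.

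The remaining 3 of the 8 are signalling genes. Ikbke, a kinase that activates Irf3 and Irf7, read 5253 and 5548 units in null and 2580 and 2072 units in wild type, 2.34-fold higher (limma adjusted p = 0.106). Socs3, a feedback inhibitor of cytokine receptors, read 4358 and 3433 units in null and 2200 and 1376 units in wild type. Irf8, a factor of monocyte and dendritic cell precursors, read 38020 and 37594 units in null and 20655 and 17595 units in wild type.

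Of the receptor's kinases, Jak1 read 2837 and 3834 units in null and 5085 and 5682 units in wild type (log2 difference -0.70, limma adjusted p = 0.269). Tyk2 read 60504 and 56600 units in null and 47886 and 51439 units in wild type, a difference of 0.24. Irf3, the factor that starts interferon transcription, read 32509 and 33699 units in null and 33197 and 34241 units in wild type, a difference of -0.03 (SE 0.17). The 2 kinases of the same receptor thus had opposite signs with groups apart, and Irf3 overlapped.

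Markers of some other cell types also differed between the genotypes. Of 13 late neutrophil genes, 12 had a probe and all 12 were lower on both null arrays, with a summed signal of 158646 and 148339 units in null, against 1370120 and 1486250 units in wild type. Monocyte and macrophage markers (7 of 13 with a probe) summed to 93789 and 109394 units in null and to 46048 and 51698 units in wild type. Plasmacytoid dendritic cell markers (10 of 13 with a probe), of the cells known for high Irf7 and interferon output, went both ways, with 4 higher and 6 lower by sign and a median log2 difference of -0.27.

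The summed plasmacytoid signal was 139077 and 126537 units in null and 118917 and 105309 units in wild type, most of it from Tcf4, Irf8 and Bst2. Irf8 had a log2 difference of 0.99, while Ly6d stood at -0.85 and Ccr9 at -0.50. Both null signals of Ccr9 (391 and 490 units) lay within the Y-linked range. Klk1 stood at -1.65, but its groups overlapped, and its lot shift of 1.76 was larger in size. Tlr7, outside the tested probes, read 276 and 299 units in null and 991 and 334 units in wild type. Siglech, the defining receptor of plasmacytoid cells, averaged 7416 ± 1770 units in null and 5715 ± 1948 units in wild type (SD, n = 2 each), and the groups overlapped. T and natural killer cell markers (11 of 13) summed to 249808 and 218085 units in null and to 74813 and 76927 units in wild type, mostly through Nkg7. Of the 7 tested T and natural killer cell markers, 5 were higher and 2 lower by sign, and Gzmb was 2.02-fold lower with the groups apart. B and plasma cell markers (9 of 11) summed to 198975 and 165666 units in null and to 188618 and 138876 units in wild type, sums that overlap and are mostly Jchain. Of the 7 tested B and plasma cell markers, 6 were higher by sign, with a median log2 difference of 0.77. The precursor B cell genes Vpreb1, Ebf1 and Vpreb3 stood at 1.62, 1.37 and 1.20, and the mature B cell gene Ms4a1, outside the tested probes, was 15.3-fold lower, its null signals of 68.0 and 143 units being near background. The plasmacytoid list shares Bst2 with the interferon response genes and Irf8 with the other pathway genes.

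Erythroid markers (9 of 10 with a probe) summed to 1239880 and 1080290 units in null and to 2553050 and 1745190 units in wild type. Stem and multipotent cell markers (9 of 11) summed to 151678 and 157562 units in null and to 122998 and 125897 units in wild type. Most of that gap came from Cd34, which averaged 42077 units in null and 15154 units in wild type. Of the 8 tested stem and multipotent markers, 4 were higher and 4 lower by sign. The part of these cell types in the interferon gene values was not tested, and fewer cells of a type cannot be told apart from less RNA per cell.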

How the data were processed

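Per the labels' protocols and the series text, RNA of lineage-negative marrow was hybridised to single-colour mouse arrays, and replicate numbers stand for array lots. The values used are the deposited probe intensities, on a linear scale; the authors had normalized them, since sorted values of the 4 arrays differ by at most 0.286%. For scanner software, background correction and detection calls, nothing was given in the sources used; precision is limited by having 4 arrays.

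Signals were raised to 75.8 units (the 1st percentile) and taken to log2. Of 33012 probes, 14411 had 1 gene symbol, 247 several and 18354 none, and the brighter 50% by mean log2 signal (16506 probes, 8445 genes) entered a test by limma 3.58.1 under R 4.3.3 (2 residual degrees of freedom), with Benjamini-Hochberg adjustment over all genes tested. The limma fit was tested on simulated data with known changes at 2 arrays per group. Noise there was independent between arrays, so the simulation does not cover a shared deviation of same-lot arrays. Same-lot arrays deviated together (correlation 0.503 for the 2 lots), and the pairing comes from the lots in the series text.

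Members, lists and tests were chosen with earlier results of these data known. Every member with a single-symbol probe could be named, with per-array values for tested members. Of the other pathway genes, 8 were named by their smaller within-lot difference, with Jak1, Tyk2 and Irf3. Alternatives covered the lot block, the dim-probe filter, floor, offset, normalization, variance trend, probe choice and leaving out each array. Promoters came from RefSeq. Tables were made with Python 3.11.15.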

Additional observations from a re-analysis of the deposited data

How the results depend on the processing

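Genes called by limma at an adjusted p under 0.05 numbered 10 as reported, 0 with the array lot as a replicate block (2055 at an unadjusted p under 0.05), 0 when dim probes were kept in (1514 by the unadjusted p), 291 among the brighter 25% of probes, 295 with a variance trend, and 0 to 0 with 1 array left out (678 to 1438 at an unadjusted p under 0.05). Called members numbered 1 as reported, 0 with the replicate block, 0 when dim probes were kept in, 3 with the brighter 25% (Ifitm1, Isg15 and Isg20; Oasl1 is not among those probes), 3 with the variance trend (Ifitm1, Isg20 and Oasl1), and 0 to 0 with 1 array left out. Other pathway genes called numbered 0 of 60 as reported, 3 of 36 with the brighter 25% and 4 of 60 with the variance trend. The 10 genes called as reported were all lower in null. With the brighter 25%, 101 of 4967 genes were called lower and 190 higher, and 3 of 18 members were called. With the variance trend, 114 of 8445 genes were called lower and 181 higher, and 3 of 35 members were called. Of the called members, Ifitm1 was higher in null and the others were lower. The brighter 25% holds 18 of the members. With the brighter 25%, 6 members were lower without overlap (33.3%, against 25.4% of genes there) and 8 were higher (44.4%, against 22.7%). With the brighter 25%, 2 were lower past 1.5-fold in both lots and 2 were higher. The share of all genes past 1.5-fold there is not given here, so neither count can be set against it. The median of members was 0.15 in place of -0.32. With 1 array left out, the log2 difference ranged from -0.65 to 0.081 for Oas2, -0.79 to 0.17 for Trim25, -0.32 to 0.18 for Ifit2, -0.25 to 0.33 for Bst2, -1.21 to 0.044 for Herc6, -1.31 to 0.022 for Iigp1, -0.079 to 0.48 for Tap1, -0.49 to 0.088 for Ifi35 and -2.56 to 0.45 for Slfn1. Of the 35 tested members, 27 kept their sign under every alternative run. The causes were not tested beyond the fewer genes or arrays that a setting holds. Signals near the Y-linked range (94.5 to 498 units) limit what can be said of Ifit1, Rsad2, Ifit2, Iigp1, Trim25 and Slfn1.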
